A study of Homo sapiens with 32 samples.

Results

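The 37 genes described here are 20 genes of the ATF4 amino acid response (the ATF4 arm) and 17 genes of the endoplasmic reticulum (ER) stress response (the ER arm), taken by name from the 57820 genes of the RNA count files. The line HCT116, from a human colorectal cancer, had all 37 listed. The line HEK293, from human embryonic kidney, had files of 11887 genes and listed 36 of them, without ALDH1L2. The study removed distal regulatory elements named E7, 18qNE and 18qE with Cas9 and guide RNAs. All cells had been transfected with Cas9-GFP, sorted and expanded as clones from single cells, and controls carried an empty guide vector. In HCT116, 1 E7 deletion clone gave 3 libraries, 1 on each of the RNA extraction days A, B and C. There were 3 18qNE deletion clones with 1 library each (clones 1 and 3 on day A, clone 2 on day B), and 4 control clones, each sampled on the same 3 days as the E7 clone. On day D, 2 18qE deletion clones and control clones 1 and 2 gave 1 library each. In HEK293, 2 E7 deletion libraries and 2 control libraries were made on day E; the deletion libraries are numbered 1 and 2 by title but share a clone label, so they may be 1 clone. The E7 result in HCT116 rests on a single deletion clone.

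ATF4 is a transcription factor whose protein is made when the initiation factor eIF2 is phosphorylated, by GCN2 when amino acids are short, by PERK when the ER is loaded with unfolded protein, and by other kinases under other stresses. It turns on genes for amino acid synthesis, uptake and tRNA charging. Unfolded protein in the ER also activates IRE1, which splices XBP1 mRNA, and ATF6, which is cleaved and moves to the nucleus; together they raise chaperones, folding enzymes and the machinery that removes misfolded protein. The counts measure mRNA levels and show neither ATF4 protein nor XBP1 splicing.

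The 18 libraries of days A to C held 9871667 to 14862268 gene counts each, the 4 of day D held 22972412 to 24887785 and the 4 of HEK293 held 26491576 to 34790193. Levels are given as CPM, a gene's count scaled to a common total of gene counts per library. They are not scaled by gene length, so they compare samples of the same line and not genes. The total runs over 57820 genes in HCT116 and over 11887 genes in HEK293. CPM of the lines therefore have unlike bases. The log2 changes between lines were fitted on shared genes only and can differ from the ratios of CPM. A summed set of 9 colon epithelial markers reached 3826 to 6450 CPM in the HCT116 control libraries of days A to C, while 5 leukocyte markers summed to at most 2.15 CPM and 3 listed endothelial markers to at most 1.46 CPM in the libraries of those days. No deleted element is itself measured by gene counts. MYC, the gene that E7 is studied with, had 162 to 216 CPM in the E7 clone of HCT116, against 387 to 482 CPM in the control libraries. In HEK293 it had 23.3 to 24.5 CPM with E7 deleted, against 67.4 to 156 CPM in the controls. Genes were tested with edgeR's quasi-likelihood F test, and "rose", "fell", "higher" and "lower" are used of tested genes with a Benjamini-Hochberg adjusted p below 0.05 over all genes of that comparison. Values after ± on log2 changes are standard errors worked back from the test, as the absolute log2 change divided by the square root of F.

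ATF4 and the ER stress factors are known to bind different promoter elements, and 7 promoter stretches are shown because they hold these elements and their genes are described below. They were taken from RefSeq (GRCh38.p14; the counts were made on hg19), from windows of 250 bases before to 50 after each gene's start. The first 3 hold the ATF4 element TGATGNAA, the fourth that element and an ER stress element of the second kind, and the last 3 an ER stress element of either kind. Capitals mark the matches, on either strand. The windows are ASNS at chr7:97872454-97872491 (minus strand), CHAC1 at chr15:40953247-40953284 (plus), AARS1 at chr16:70289671-70289708 (minus), HERPUD1 at chr16:56931951-56932050 (plus), HSPA5 at chr9:125241376-125241424 (minus), XBP1 at chr22:28800588-28800636 (minus) and HYOU1 at chr11:119057259-119057405 (minus).
ASNS: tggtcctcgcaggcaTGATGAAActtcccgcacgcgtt
CHAC1: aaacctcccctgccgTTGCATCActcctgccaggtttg
AARS1: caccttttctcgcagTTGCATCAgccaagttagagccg
HERPUD1: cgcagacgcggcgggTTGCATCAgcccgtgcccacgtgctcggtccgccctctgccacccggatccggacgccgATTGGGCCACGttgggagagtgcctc
HSPA5: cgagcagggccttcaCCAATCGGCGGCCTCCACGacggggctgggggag
XBP1: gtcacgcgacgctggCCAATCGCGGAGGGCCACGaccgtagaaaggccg
HYOU1: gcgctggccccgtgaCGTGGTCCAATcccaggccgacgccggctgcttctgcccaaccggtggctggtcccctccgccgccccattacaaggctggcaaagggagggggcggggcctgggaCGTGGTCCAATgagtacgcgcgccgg

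Of the 37 genes, 33 had a window; PSPH, SHMT2, ALDH1L2 and SLC7A11 had none in the table. The ATF4 element was found in 5 of 16 ATF4 arm windows (ASNS, CHAC1, SLC3A2, SLC7A1 and AARS1) and in 2 of 17 ER arm windows (CREB3L2 and HERPUD1), against 4.46% of all 27305 genes with a window. The ER stress element of the first kind, CCAAT and CCACG separated by 9 bases, was found in 5 of 17 ER arm windows (HSPA5, HSP90B1, PDIA6, XBP1 and CRELD2) and in 0 of 16 ATF4 arm windows, against 0.0916% of all genes. The second kind, ATTGG and CCACG separated by 1 base, was found in 3 of 17 ER arm windows (HYOU1, SDF2L1 and HERPUD1) and in 0 of 16 of the ATF4 arm, against 0.0696% of all genes. HYOU1 held it at 2 places. A match gives the letters of the window alone and no binding.

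In the 12 HCT116 control libraries of days A to C, the ATF4 arm varied more from library to library than the ER arm. The arm's median, taken in each library as the median over its genes of log2(CPM + 1) minus the gene's control mean, ran from -0.29 (clone 3, day A) to 0.38 (clone 4, day B). The same median of the ER arm ran from -0.09 to 0.10. ATF4 (ENSG00000128272.10) itself ran from 232 to 366 CPM with a median of 272 CPM. ASNS, which makes asparagine, ran from 56.9 to 248.5 CPM with a median of 100.3 CPM, and CHAC1, which breaks down glutathione, from 1.49 to 12.04 CPM with a median of 3.33 CPM. HSPA5 (ENSG00000044574.7), the main ER chaperone BiP, ran from 703 to 985 CPM with a median of 840 CPM. HSP90B1, the ER form of HSP90, ran from 1107 to 1445 CPM with a median of 1296 CPM. DDIT3, the stress factor CHOP, was low throughout at 5.27 to 8.96 CPM. In bulk RNA, fewer cells expressing a gene and less of it per cell cannot be told apart.

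**Figure D1:**
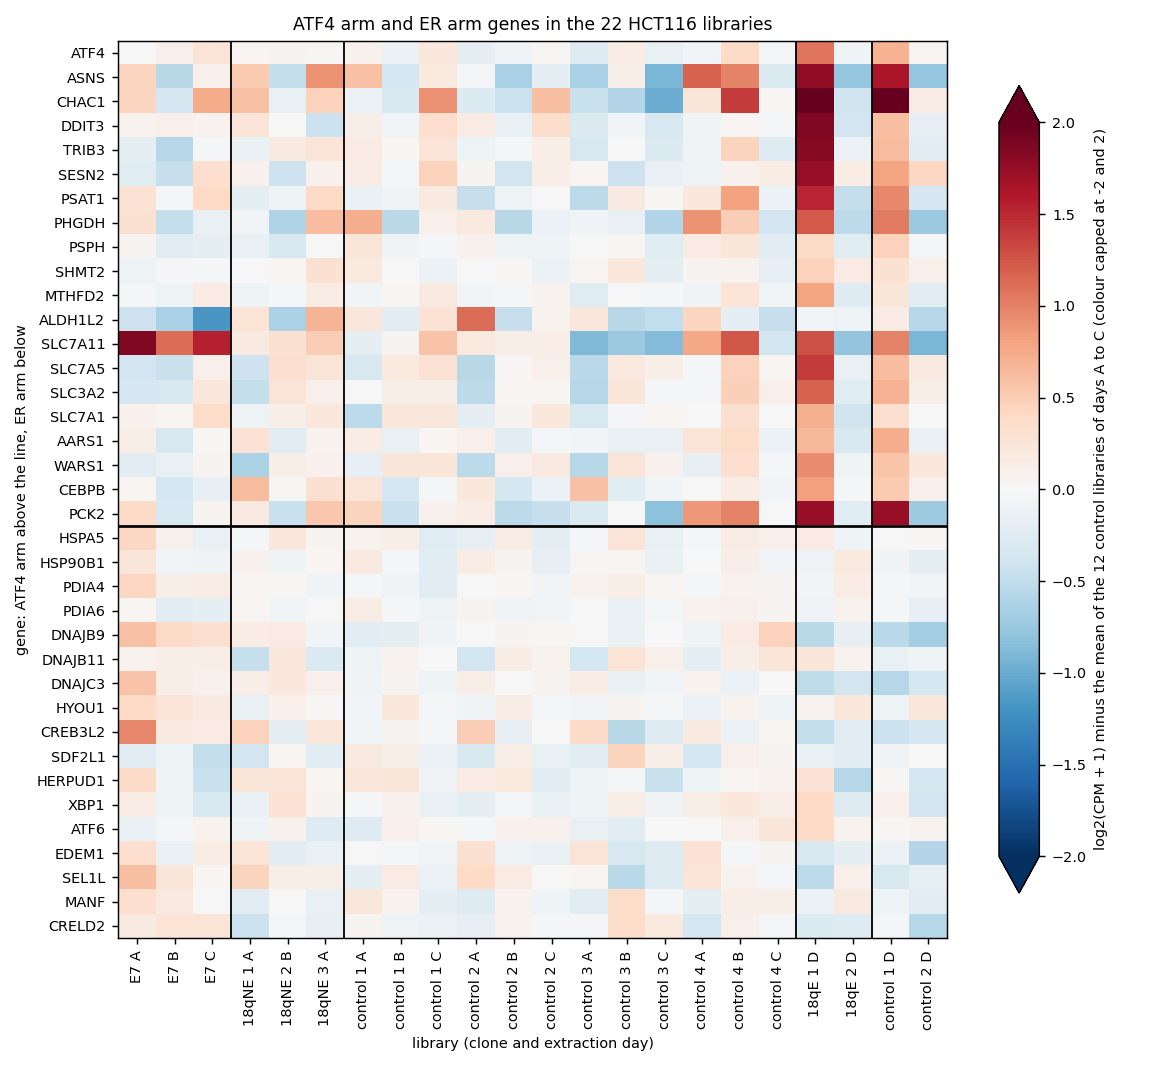
Heat map of the 37 genes (rows; ATF4 arm above the line, ER arm below) in the 22 HCT116 libraries (columns, grouped by deletion, clone and extraction day). Colour is log2(CPM + 1) minus the mean of the 12 control libraries of days A to C, capped at -2 and 2. The deepest red columns in the ATF4 arm are 18qE clone 1 and control clone 1 on day D (arm medians 1.21 and 0.67), while their ER arm medians were -0.07 and -0.08; SLC7A11 is red in all 3 E7 libraries.

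Members of both arms differed between extraction days in the control clones, where each clone was sampled on each day and was kept as a block. On day B against day A, 6 of 20 ATF4 arm genes rose and 3 fell, and 7 of 17 ER arm genes rose and 2 fell. Among all 14988 genes tested, 19.1% rose and 19.4% fell. The median log2 change was 0.15 for the ATF4 arm and 0.11 for the ER arm, against -0.01 for all genes. The share of members that rose lay above the background in both arms, and the share that fell below it.

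The largest day changes of the ATF4 arm were those of ALDH1L2, WARS1, SLC7A5 and PHGDH. SLC7A5, the light chain of the transporter LAT1 for large neutral amino acids, had 815, 725, 810.3 and 975 CPM in control clones 1 to 4 on day B, against 568, 483, 485.5 and 701 CPM in the same clones on day A. Every clone was higher on day B, and the log2 change was 0.63 ± 0.10 (adjusted p = 0.00022, edgeR). WARS1, the tryptophanyl-tRNA synthetase, had 159, 145, 161 and 171 CPM on day B, against 120.3, 93.4, 90.7 and 120.3 CPM on day A, and the groups did not overlap (log2 change 0.64 ± 0.10, adjusted p = 0.000212). SLC3A2, the heavy chain that partners SLC7A5, rose by 0.54 ± 0.10 (adjusted p = 0.00116). ALDH1L2, a mitochondrial folate enzyme, had 1.78, 1.35, 1.19 and 1.83 CPM on day B, against 2.76, 5.95, 2.78 and 3.36 CPM on day A, and fell by 1.20 ± 0.26 (adjusted p = 0.00261). PSAT1 (0.50), SLC7A1 (0.46) and MTHFD2 (0.23) also rose on the log2 scale. PHGDH, which starts serine synthesis, and CEBPB, a transcription factor, had log2 changes of -0.55 and -0.42 and fell. ATF4 mRNA itself did not pass the test on day B (log2 change 0.26).

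In the ER arm, DNAJB11, an HSPA5 co-chaperone, had 118, 124, 135.5 and 121 CPM on day B, against 105, 85.8, 87.5 and 97.2 CPM on day A, with no overlap (log2 change 0.46 ± 0.09, adjusted p = 0.00098, edgeR). SDF2L1, another ER chaperone partner, rose by 0.43 ± 0.11 (adjusted p = 0.00823). MANF, a secreted ER stress protein, rose by 0.32, CRELD2 by 0.30, HSPA5 by 0.26, HYOU1 by 0.25 and XBP1 by 0.21. CREB3L2, an ER-bound transcription factor, had a log2 change of -0.40 ± 0.12 (adjusted p = 0.0157), and EDEM1, which targets misfolded glycoproteins for removal, had -0.29; both fell. These calls depended on single clones: without control clone 2, 13 of the 18 members lost their call, among them HSPA5, HYOU1, CREB3L2, ALDH1L2 and PSAT1, and without control clone 3, 10 did, among them HSPA5, SDF2L1, PSAT1 and CEBPB. Of all genes, 18.3% and 25.4% were called in those settings. Without control clone 4, MTHFD2, EDEM1, MANF and CRELD2 lost theirs, and without control clone 1 PHGDH did.

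Day C against day A gave 4 members of the ATF4 arm that rose (SLC7A5, WARS1, SLC7A1 and SLC3A2, with log2 changes of 0.54, 0.52, 0.42 and 0.37) and 3 that fell (ALDH1L2, PHGDH and PCK2, with -0.88, -0.63 and -0.57). In the ER arm DNAJB11 (0.40) and ATF6 (0.24) rose and EDEM1 (-0.28) fell. Of all genes, 15.6% rose and 16.6% fell. The medians were 0.13 for the ATF4 arm, -0.01 for the ER arm and -0.01 for all genes. SLC7A5 had 869, 758, 771 and 730.2 CPM in clones 1 to 4 on day C, each above the same clone on day A. Without control clone 2, 7 of these 10 members lost their call (ALDH1L2, SLC3A2, SLC7A1, PCK2, DNAJB11, ATF6 and EDEM1), and without control clone 4, 5 did (PHGDH, ALDH1L2, PCK2, ATF6 and EDEM1); 12.9% and 29.5% of all genes were called in those settings. SLC3A2 and EDEM1 lost theirs without control clone 3. On day C against day B no member of either arm passed edgeR's test, with 2 ATF4 arm and 5 ER arm genes at an unadjusted p below 0.05, where 12.7% of all genes were. DESeq2 also called 0 members, and 0.454% of all genes. Of all genes, 0.00667% rose and 0.0267% fell.

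**Figure D2:**
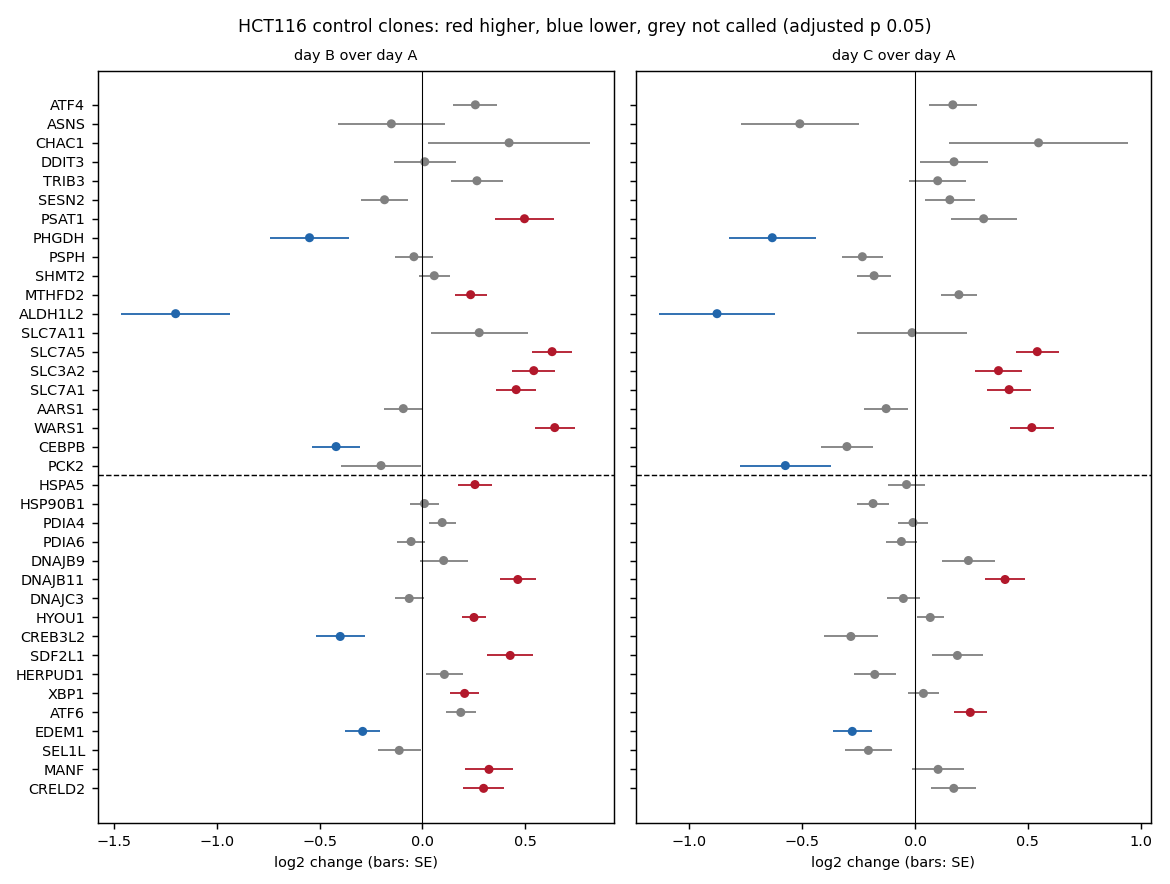
Log2 change (point) with its standard error (bar) of each member between extraction days in the 4 HCT116 control clones, day B over day A on the left and day C over day A on the right, ATF4 arm above the dashed line. Red and blue points passed the test. SLC7A5, WARS1, SLC3A2 and SLC7A1 are red in both panels and ALDH1L2 and PHGDH blue in both; HSPA5 is red on day B (0.26) and grey on day C (-0.04).

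Few members differed among the control clones. With day as a term, 2 of 20 ATF4 arm genes, SLC7A11 and PCK2, and 0 of 17 ER arm genes differed among the 4 clones, against 7.8% of all genes; 6 ATF4 arm and 2 ER arm genes had an unadjusted p below 0.05 in edgeR, as did 20.5% of all genes. The ATF4 arm count lay near the background share. SLC7A11 (ENSG00000151012.9), the cystine importer, had 46.7, 47.2, 23.3 and 68.1 CPM in clones 1 to 4 over the 3 days together (adjusted p = 0.0197, edgeR). Clone 3 was the lowest and clone 4 the highest. PCK2, the mitochondrial PEP carboxykinase, had 24.3, 19.4, 18.4 and 36.9 CPM (adjusted p = 0.0254, edgeR; adjusted p = 0.0938 without day C). Libraries of a clone are repeat extractions, so these p-values measure the spread within clones over days.

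Set against the other 3, clone 3 was lower in SLC7A11 by a log2 change of -1.17 ± 0.24 (adjusted p = 0.00745, edgeR), with no other member called, where 4.35% of all genes were higher and 3.17% lower. Clone 4 was higher in PCK2 (0.84 ± 0.18, adjusted p = 0.0103) and SLC7A11 (0.82 ± 0.22, adjusted p = 0.0391), where 2.72% of all genes were higher and 2.5% lower. Without day B, the SLC7A11 difference of clone 4 was 0.45 with an adjusted p of 0.35, and without day A it was 0.67 with 0.0862. ASNS, at 248.5, 216 and 88.9 CPM in clone 4 on days A, B and C, had a log2 difference of 0.84 that missed the threshold (adjusted p = 0.0504). In clones 1 and 2 no member passed edgeR's test; 1 and 4 ATF4 arm genes and 1 and 2 ER arm genes had an unadjusted p below 0.05, against 9.1% and 9.31% of all genes. The shares of all genes were 0.44% higher and 0.5% lower for clone 1, and 0.861% higher and 0.374% lower for clone 2.

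With E7 deleted in HCT116, the cystine importer SLC7A11 rose and was the only ATF4 arm gene of 20 to pass the test, while 3 of 17 ER arm genes rose: CREB3L2, DNAJC3 and HYOU1. No member fell. Of the 17664 genes tested, 7.58% rose and 6.32% fell, so 1 of 20 lay near the background share and 3 of 17 above it. At an unadjusted p below 0.05 there were 2 ATF4 arm and 6 ER arm genes, against 29.7% of all genes, a share that the ATF4 arm lay below and the ER arm lay near. The median log2 change was -0.06 for the ATF4 arm and 0.16 for the ER arm, against -0.01 for all genes. Each clone was the sum of its 3 libraries, and the single E7 clone was assumed to vary like the 4 control clones.

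Other markers moved with the E7 clone. The 5 HEK293 markers listed summed to 13.6 to 19.7 CPM in the E7 libraries, against 79.1 to 108 CPM in the controls; of 3 tested, DPYSL3 (log2 change -3.78) and GATA3 (-2.59) fell, and NEFM was at 0 in both groups. Of 6 colon epithelial markers tested, KRT19 rose (0.36) and CDH1 fell (-0.73), and the 9 listed summed to 4246 to 5797 CPM in the E7 libraries, against 3826 to 6450 CPM in the controls. The 5 leukocyte markers summed to 0.958 to 2.15 CPM in the E7 libraries, against 0.150 to 1.11 CPM in the controls; LYZ, the 1 tested, rose (1.93), and PTPRC was at 0 in the controls. The 5 fibroblast markers summed to 12.01 to 22.1 CPM in the E7 libraries, against 17.1 to 29.6 CPM in the controls, with COL1A2, DCN and LUM at 0 in both and COL1A1, the 1 tested, not called. The 3 endothelial markers listed summed to 0.351 to 0.673 CPM in the E7 libraries, against 0.0849 to 1.46 CPM in the controls, and the 2 tested were not called. Their part in the results of the members was not tested.

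SLC7A11 had 156, 93.5 and 127 CPM in the E7 libraries of days A, B and C, against a lowest value of 22.5 CPM, a median of 45.3 CPM and a highest of 101 CPM in the 12 control libraries. The E7 value was the highest on days A and C, and on day B it lay below that of control clone 4, which had the 101 CPM. The log2 change was 1.46 ± 0.38 (adjusted p = 0.0436, edgeR). The call was lost in DESeq2 (adjusted p = 0.0811) and without control clone 1 (adjusted p = 0.0956) or 2 (adjusted p = 0.104), without day A (adjusted p = 0.0658) or day C (adjusted p = 0.112), and without the E7 library of day A (adjusted p = 0.0723), with log2 changes between 1.23 and 1.47. It was also lost when the 18qNE clones were the comparison group (log2 change 1.22, adjusted p = 0.0702). ALDH1L2 had 1.41, 1.05 and 0.435 CPM in the E7 libraries, against a median of 2.1 CPM in the controls, and its log2 change of -1.25 ± 0.37 missed the threshold (adjusted p = 0.0615, edgeR). In DESeq2 it was ALDH1L2 and not SLC7A11 that was called. ATF4 itself had 279, 300.1 and 335 CPM in the E7 libraries, against 232 to 366 CPM in the controls, within the range of the same day's controls on days A and B and above it on day C (log2 change 0.12 ± 0.09, adjusted p = 0.424). DDIT3 had 7.20, 7.37 and 7.22 CPM in the E7 clone, against 5.27 to 8.96 CPM in the controls, with a log2 change of 0.09 ± 0.19 (adjusted p = 0.79).

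Among the ER arm genes, CREB3L2 had 94.4, 54.2 and 53.8 CPM in the E7 libraries of days A, B and C. The controls had 45.8 to 67.7 CPM on day A, 32.3 to 49.8 CPM on day B and 40.0 to 49.0 CPM on day C. The E7 library lay above all 4 controls on each day (log2 change 0.51 ± 0.09, adjusted p = 0.0106, edgeR). HYOU1, a large ER chaperone, had 329, 297 and 281 CPM in the E7 libraries, against 229 to 292 CPM in the 12 controls, and was also the highest on each day (log2 change 0.30 ± 0.08, adjusted p = 0.0401). DNAJC3, the inhibitor p58IPK and an ER co-chaperone, had 113, 83.4 and 80.7 CPM in the E7 libraries, against 68.7 to 83.6 CPM in the controls (log2 change 0.32 ± 0.08, adjusted p = 0.035). HSPA5 had 1107, 881 and 746.5 CPM in the E7 libraries, against 703 to 985 CPM in the controls: only the day A library lay outside the controls' range (log2 change 0.16 ± 0.08, adjusted p = 0.209). XBP1 had 71.7, 61.2 and 52.2 CPM in the E7 clone, against 56.8 to 75.6 CPM in the controls, with a log2 change of -0.05 ± 0.11 (adjusted p = 0.822).

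The ER arm calls rested on the E7 library of day A. Without that library, the log2 changes were 0.17 for CREB3L2, 0.14 for DNAJC3 and 0.25 for HYOU1 and none passed. The controls kept their day A libraries in that setting, so day was not balanced and day differences of the controls enter these values. With day A left out of both groups, which keeps the balance, the log2 changes were 0.31, 0.17 and 0.20 and none passed. Of all genes, 14.4% and 11.5% were called in those settings. DNAJC3 and HYOU1 also lost their call without control clone 1, 2 or 4, DNAJC3 without day B and HYOU1 without day C. Taken day by day, the E7 library lay above all 4 control libraries of its day for 14 of 17 ER arm genes on day A, where this held for 28.9% of 11055 genes. On day B it did so for 5 of 17 (30.5% of all genes) and on day C for 7 of 17 (31.7%). It lay below all 4 controls for 0, 6 and 3 ER arm genes on days A, B and C, where this held for 26.2%, 30.6% and 35.2% of all genes. The median ratio of the E7 library to the control median over the ER arm was 1.27 on day A, 1.005 on day B and 1.05 on day C. The ATF4 arm gave 5, 1 and 6 of 20 genes above and 3, 10 and 2 below, with median ratios of 1.02, 0.913 and 1.09. On day B, SLC7A5, SLC3A2 and TRIB3 were below all 4 controls: SLC7A5 had 519 CPM in the E7 library, against 725 to 975 CPM in the controls.

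Whether the E7 clone differed from the controls by another amount on day A than on days B and C was tested by an interaction term. No member and 0% of the 15767 genes tested, higher or lower, passed edgeR's adjusted threshold. At an unadjusted p below 0.05 there were 0 ATF4 arm genes and 6 ER arm genes, against 3.7% of all genes. These were HERPUD1 (log2 difference 0.57 ± 0.17), HSPA5 (0.50 ± 0.14), XBP1 (0.41 ± 0.13), DNAJC3 (0.35 ± 0.13), HYOU1 (0.29 ± 0.11) and PDIA4 (0.27 ± 0.12), each higher on day A. Of the ER arm, 16 of 17 differences were above 0, with a median of 0.31, against 0.09 for the ATF4 arm and 0.01 for all genes. The E7 clone has 1 library per day, so the day A excess is a property of 1 library.

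**Figure D3:**
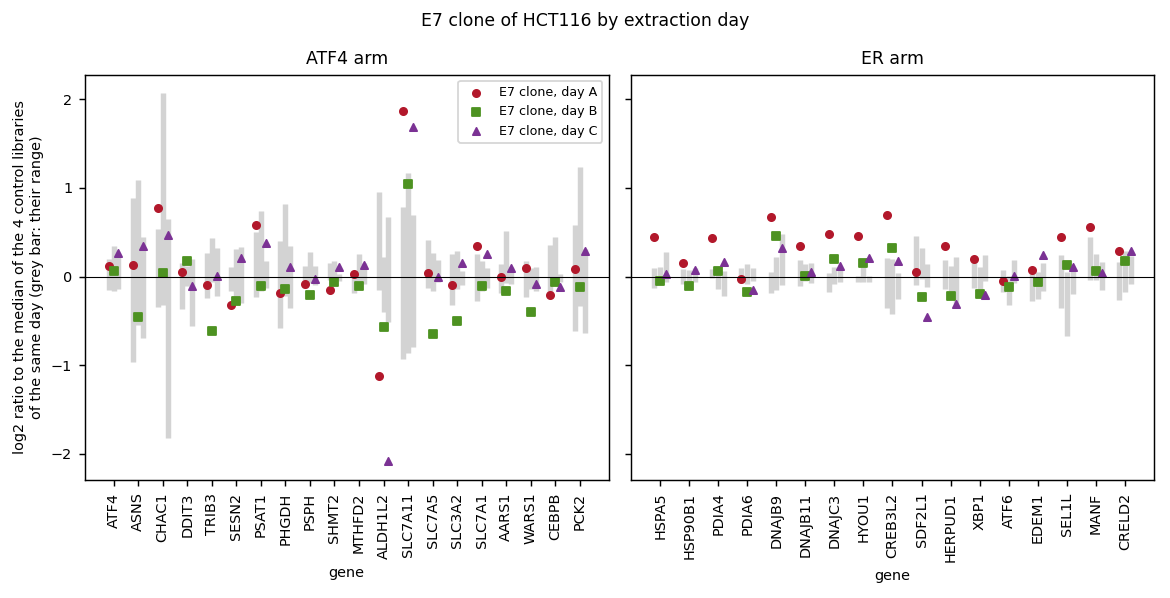
Log2 ratio of the E7 clone's CPM to the median of the 4 HCT116 control libraries of the same day, ATF4 arm on the left and ER arm on the right; circles are day A, squares day B and triangles day C, and grey bars span the controls. In the ER arm the circles lie above the bars for 14 of 17 genes; SLC7A11 is high on all 3 days and ALDH1L2 is low, lowest on day C at 0.435 CPM.

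Genes next to the arms were called in both directions in the E7 clone. Of all genes tested, 7.58% rose and 6.32% fell, and the counts of these short lists are read against those shares. Of 23 tested other ATF4 targets, 2 rose and 4 fell. ATF3, a stress-induced partner of ATF4, fell by 1.26, DDIT4, an inhibitor of mTORC1 signalling, fell by 1.26, and ATF5 fell by 0.82 on the log2 scale. Of 20 stress sensors, eIF2 kinases and eIF2 subunits, PPP1R15A, the stress-induced eIF2 phosphatase subunit GADD34, rose by 0.37 and IMPACT, an inhibitor of GCN2, fell by 0.46. Of 33 other ER folding and degradation genes 2 rose, HSPA13 by 0.45 and DERL2 by 0.40, and SRPRB fell by 0.39. Of 18 other tRNA synthetases 0 rose and 2 fell, RARS1 by 0.33 and FARSB by 0.33. Of 12 targets of NRF2, the factor that also drives SLC7A11, 1 rose, NQO1 by 0.83, and 3 fell, among them ABCC2 by 2.49 and HMOX1 by 0.93. Of 12 cytosolic heat shock genes 1 fell, HSPA1B by 0.71, whose reads cannot be told from those of its near-identical copy HSPA1A.

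In the 3 18qNE deletion clones neither arm moved past the threshold. No member passed edgeR's test, and 0% of the 15524 genes tested were called higher or lower. At an unadjusted p below 0.05 there were 0 members, against 3.25% of all genes. DESeq2 called 0 members and 0.0837% of all genes. The medians were 0.05 for the ATF4 arm and -0.01 for the ER arm, against 0.01 for all genes. The ATF4 arm differed by day. Within day A, 16 of 20 log2 changes were above 0 (median 0.14, all genes 0.00). Within day B, which has 1 18qNE library, 5 of 20 were (median -0.12, all genes -0.01). The ER arm median was -0.01 within each day. ATF4 had 286, 289 and 284 CPM in 18qNE clones 1 to 3, against 232 to 366 CPM in the control libraries (log2 change 0.05 ± 0.10, adjusted p = 1). DDIT3 (0.02 ± 0.20), HSPA5 (0.05 ± 0.10) and XBP1 (0.07 ± 0.13) had log2 changes smaller than their standard errors. The largest values were those of CHAC1 (0.30 ± 0.43) and CEBPB (0.28 ± 0.14). ASNS had 157 and 204 CPM in 18qNE clones 1 and 3 on day A, and 77.6 CPM in the clone of day B. These values stayed within the controls' 56.9 to 248.5 CPM. The control median of ASNS was also lower on day B, at 101.5 CPM, against 134.3 CPM on day A. Each 18qNE clone has 1 library, so clone and day cannot be told apart in the low value. The 18qNE libraries are not balanced over days A and B as the controls are, so day differences can enter the log2 changes.

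On day D the ATF4 arm stood high in 1 of 2 clones in each group, and 18qE deletion and control were not separated. 18qE clone 1 had 587 CPM of ATF4 and 18qE clone 2 had 262 CPM, against 452.5 CPM in control clone 1 and 287 CPM in control clone 2. ASNS had 374 and 62.8 CPM in 18qE clones 1 and 2, against 337.5 and 63.2 CPM in control clones 1 and 2. CHAC1 had 52.6 and 2.77 CPM in the 18qE clones, against 25.2 and 4.53 CPM in the controls. In all 3 genes the clones numbered 1 were high, the clones numbered 2 low, and the groups overlapped. The shared number has no meaning in the labels beyond naming the clones.

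The same order held for DDIT3, with 27.2 and 4.98 CPM in the 18qE clones, against 10.9 and 5.96 CPM in the controls. TRIB3, a pseudokinase that dampens ATF4 signalling, had 168 and 43.1 CPM in the 18qE clones, against 73.3 and 40.1 CPM in the controls. PSAT1, the second enzyme of serine synthesis, had 511 and 127 CPM in the 18qE clones, against 346 and 140.3 CPM in the controls. SLC7A5 had 1870 and 641 CPM in the 18qE clones, against 1085 and 807 CPM in the controls. All 4 genes were highest in 18qE clone 1. The ER chaperones had other orders: HSPA5 had 929.6 and 779 CPM in the 18qE clones, against 823.5 and 844 CPM in the controls, and HSP90B1 had 1219 and 1470 CPM, against 1213 and 1115 CPM.

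Between single libraries, 18qE clone 1 was at least 1.5-fold above 18qE clone 2 in 17 of 18 ATF4 arm genes (median ratio 2.80) and in 2 of 17 ER arm genes, XBP1 and HERPUD1 (arm median ratio 0.906), where this held for 2.68% of 11027 genes. These genes averaged 5 CPM or more over the 12 control libraries of days A to C, which CHAC1 and ALDH1L2 did not reach. Control clone 1 was at least 1.5-fold above control clone 2 in 9 of those 18 ATF4 arm genes (median ratio 1.53) and in 0 of 17 ER arm genes (1.01), where it held for 3.87% of all genes. These ratios have no replicate check. On days A to C the libraries of control clone 1 had ATF4 arm medians of 0.13, -0.06 and 0.21, and on day D the same clone had 0.67; control clone 2 had -0.08 on day D. The 9 colon epithelial markers summed to 5139 to 5180 CPM in the 18qE libraries and 5535 to 6202 CPM in the controls of day D, and the part of any difference between cultures in the result was not tested.

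18qE deletion against control gave no call: 0 members passed edgeR's test, and 0% of the 15261 genes tested were called higher or lower. At an unadjusted p below 0.05 there were 0 members, against 2.56% of all genes. DESeq2 called 0 members and 0.125% of all genes. The log2 changes were above 0 for 18 of 20 ATF4 arm genes (median 0.26) and 16 of 17 ER arm genes (median 0.12), against a median of 0.00 for all genes. The errors were wide: ATF4 0.25 ± 0.38, DDIT3 1.00 ± 0.69, CHAC1 0.98 ± 1.13, HSPA5 0.07 ± 0.17 and XBP1 0.28 ± 0.27. The call turned on 1 library. Without 18qE clone 2, 5 ATF4 arm genes were called higher in the remaining 18qE clone, CHAC1 (1.91), DDIT3 (1.77), TRIB3 (1.65), SESN2 (1.24) and SLC7A5 (1.07), and 0 ER arm genes were; 0.528% of all genes were called higher. That lone library was assumed to vary like the 2 controls. Without 18qE clone 1, 0 members were called, and 0.562% of all genes were called higher and 0.114% lower.

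Control clones 1 and 2 could also be compared between day D and days A to C. No member passed edgeR's test, while 12 ATF4 arm and 3 ER arm genes had an unadjusted p below 0.05, against 13.2% of all genes, and 0.183% of the 14782 genes tested were called higher and 0.271% lower. Over both clones, 19 of 20 ATF4 arm log2 changes were above 0 (median 0.42), against 6 of 17 in the ER arm (median -0.07) and a median of 0.00 for all genes. Control clone 1 carried this: in that clone alone 20 of 20 were above 0 (median 0.63), and in control clone 2 alone 11 of 20 (median 0.03). CHAC1 had the largest difference (1.53 ± 0.49, adjusted p = 0.219), with 25.2 CPM on day D, against 3.02 to 8.31 CPM on days A to C in clone 1, and 4.53 CPM, against 2.70 to 6.51 CPM, in clone 2. SESN2, a sensor of leucine that restrains mTORC1, had 0.62 ± 0.17 (adjusted p = 0.15). Day D was also sequenced more deeply. Alignments that were not unique made up 18.8% and 15.6% of all counts in control clones 1 and 2 on day D. Their share was 18.5% and 24.75% in 18qE clones 1 and 2, and 12.3% to 13.8% in the libraries of days A to C. Day, depth and this share cannot be told apart, and the part of the share in the values was not tested.

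**Figure D4:**
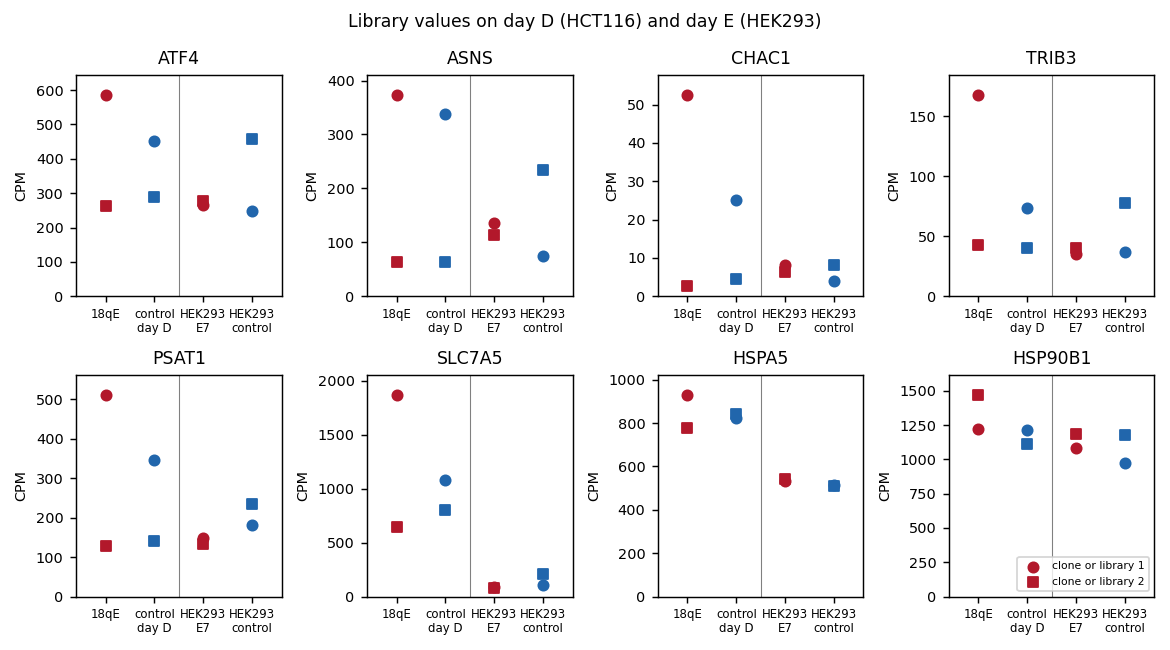
CPM of 6 ATF4 arm genes and 2 ER arm genes in single libraries: 18qE deletion and control clones of HCT116 on day D (left of the line) and E7 deletion and control libraries of HEK293 on day E (right); red is deletion, blue control, circles number 1 and squares number 2. On day D the circles lie above the squares in all 6 ATF4 arm genes. In HEK293 the control square lies above the control circle in those 6 genes, as for ASNS (235 against 73.8 CPM), and the deletion libraries lie closer together; HSPA5 is nearly level in the controls (509 and 515 CPM).

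In HEK293, E7 deletion gave no member past the threshold, and the control libraries differed from each other in the ATF4 arm. Of 19 ATF4 arm and 17 ER arm genes tested, 0 passed edgeR's test, 4 and 3 had an unadjusted p below 0.05, against 12.6% of all genes, and DESeq2 called AARS1 and HERPUD1 and 3.92% of all genes. Of all 11806 genes tested, 0.00847% were higher and 0.0169% lower. The ATF4 arm had log2 changes above 0 in 3 of 19 genes (median -0.45), and the ER arm in 10 of 17 (median 0.00), against a median of -0.01 for all genes.

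ATF4 had 266 and 277 CPM in E7 libraries 1 and 2, against 248 and 459 CPM in control libraries 1 and 2 (log2 change -0.46 ± 0.35, adjusted p = 0.594, edgeR). ASNS had 137 and 114 CPM in the E7 libraries, against 73.8 and 235 CPM in the controls, so the E7 values lay between the controls. CEBPB had 15.6 and 14.9 CPM in the E7 libraries, against 19.7 and 47.6 CPM in the controls (log2 change -1.23 ± 0.46, adjusted p = 0.373). AARS1, the alanyl-tRNA synthetase, had 99.0 and 92.1 CPM in the E7 libraries, against 197 and 185 CPM in the controls, with a log2 change of -1.07 ± 0.18 (adjusted p = 0.197, edgeR; adjusted p = 0.000819, DESeq2). HSPA5 had 532.5 and 543 CPM in the E7 libraries, against 515 and 509 CPM in the controls (log2 change 0.00 ± 0.19, adjusted p = 0.991). XBP1 (-0.37 ± 0.27) and DDIT3 (0.11 ± 0.26) did not pass either. HERPUD1, an ER membrane protein of misfolded protein removal whose window holds an ATF4 element and an ER stress element, had 25.4 and 25.8 CPM in the E7 libraries, against 41.5 and 47.0 CPM in the controls (-0.86 ± 0.20, adjusted p = 0.235). CREB3L2 went the other way, with 68.4 and 69.5 CPM in the E7 libraries, against 48.4 and 44.0 CPM in the controls (0.51 ± 0.17, adjusted p = 0.339).

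Control library 2 was at least 1.5-fold above control library 1 in 11 of 19 ATF4 arm genes (median ratio 1.71) and in 2 of 17 ER arm genes (1.13), with 3 ER arm genes at least 1.5-fold below; 11.7% of 10803 genes averaging 5 CPM or more over the E7 libraries were that much higher and 21.1% lower. E7 library 1 was that far above E7 library 2 in 1 of 19 ATF4 arm genes and in 0 of 17 ER arm genes, against 0.795% of genes with that average in the controls. Which control was kept decided the number of calls: without control library 1, 15 of 19 ATF4 arm genes passed, all with log2 changes below 0, and 10 of 17 ER arm genes passed, while 52.5% of all genes were called, with 26.3% of all genes lower. Without control library 2, 4 ATF4 arm and 4 ER arm genes passed and 16.2% of all genes were called. The ER arm count lay near the background in the first setting, and both arms' counts in the second. ASNS had a log2 change of -1.02 without control library 1 and 0.74 without control library 2. AARS1 had -1.07 both ways. With a single control left, the spread was that between E7 libraries 1 and 2, possibly repeats of 1 clone. The 4 HEK293 markers listed summed to 248 to 260.5 CPM in the E7 libraries and 210.2 to 249 CPM in the controls; NEFM alone passed, with 35.8 and 28.7 CPM in the E7 libraries, against 0.632 and 0.680 CPM in the controls. The 5 colon epithelial markers listed summed to 1018 to 1163 CPM in the E7 libraries, against 447 to 731 CPM in the controls (median log2 change 0.78); 0 of 5 passed and 4 had an unadjusted p below 0.05. No marker of either list was at 0 in all libraries of a group, and their part in the values of the members was not tested.

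Whether the E7 change differed between HEK293 and HCT116 was tested by the interaction of line and deletion. Of 19 ATF4 arm genes 1 passed, AARS1, whose change in HEK293 lay below that in HCT116 by a log2 difference of -1.01 ± 0.17 (adjusted p = 0.0214, edgeR). In HCT116 AARS1 had 250.6, 185.5 and 234 CPM in the E7 libraries, against 196 to 297 CPM in the controls. No ER arm gene passed, 3 ATF4 arm and 2 ER arm genes had an unadjusted p below 0.05, against 19.1% of all genes, and 1.45% of 11849 genes were higher and 1.93% lower. The AARS1 call was lost without HCT116 control clone 1, 2 or 3 or either HEK293 E7 library, with adjusted p between 0.0512 and 0.104 and log2 differences between -1.05 and -0.96. ATF4 had a difference of -0.57 ± 0.38 (adjusted p = 0.49). Of the other ATF4 targets 3 of 23 differed: PYCR1, which makes proline, by -4.13, GPT2, an alanine aminotransferase, by -1.32, and VEGFA by -0.90.

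The lines themselves differed in both arms. In HEK293 control libraries against HCT116 control clones, 2 of 19 ATF4 arm genes were higher and 7 lower, and 1 of 17 ER arm genes was higher and 9 lower. Of 11805 genes tested, 31.1% were higher and 26% lower, so the share of lower members was above the background in both arms and that of higher members below it. The medians were -0.06 for the ATF4 arm and -0.32 for the ER arm, against 0.05 for all genes. HEK293 was extracted on day E alone, and line and day cannot be told apart. The colon epithelial markers summed to 447 to 731 CPM in the HEK293 controls, with 5 listed, and to 3826 to 6450 CPM in the HCT116 controls, with 9 listed. The HEK293 markers summed to 210.2 to 249 CPM in the HEK293 controls, with 4 listed, and to 79.1 to 108 CPM in the HCT116 controls, with 5 listed. These sums cover unlike sets of genes. CPM also has an unlike base in each line, so CPM ranges and overlaps between the lines are approximate. Of markers tested in both lines, 4 of 5 colon epithelial markers were lower in HEK293 and 4 of 4 HEK293 markers higher.

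In the ATF4 arm, 4 of the 7 genes that were lower in HEK293 take part in amino acid transport. SLC7A5 had 111 and 210.4 CPM in the HEK293 controls, against a lowest value of 483, a median of 744 and a highest of 975 CPM in the 12 HCT116 controls, and the groups did not overlap (log2 change -2.37 ± 0.29, adjusted p = 0.000455, edgeR). Its partner SLC3A2 (-1.05), the cystine importer SLC7A11 (-1.22) and the cationic amino acid transporter SLC7A1 (-0.59) were lower too. CEBPB (-1.08), MTHFD2, a mitochondrial folate enzyme (-0.66), and AARS1 (-0.51) were also lower. SESN2 was higher, with 52.3 and 67.4 CPM in the HEK293 controls, against 13.8 to 26.0 CPM in the HCT116 controls (log2 change 1.44 ± 0.16, adjusted p = 0.000264, edgeR). PHGDH had 177 and 367 CPM in the HEK293 controls, against 66.2 to 187 CPM in the HCT116 controls, with overlap (1.14 ± 0.31, adjusted p = 0.0159). ATF4 (0.12) and DDIT3 (0.26) did not pass. Without HEK293 control library 2, PHGDH had 0.46 and lost its call. SLC7A11 lost its call without HEK293 control library 1 or HCT116 control clone 1 or 2, and CEBPB without any one of the 4 HCT116 clones.

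In the ER arm, 9 of the 10 genes that passed were lower in HEK293. HSPA5 had 515 and 509 CPM in the HEK293 controls, against 703 to 985 CPM in the HCT116 controls (log2 change -0.94 ± 0.10, adjusted p = 0.000274, edgeR). HYOU1 had 161 and 147 CPM in the HEK293 controls, against 229 to 292 CPM in the HCT116 controls (-0.93 ± 0.09, adjusted p = 0.00019). Neither gene overlapped between the lines. DNAJC3 had 51.9 and 32.2 CPM, against 68.7 to 83.6 CPM (-1.09 ± 0.17, adjusted p = 0.00147). PDIA4, a protein disulfide isomerase, was lower by a log2 change of -0.74, MANF by -0.50, HSP90B1 by -0.49, the sensor ATF6 by -0.46, DNAJB11 by -0.43 and CREB3L2 by -0.32. PDIA6, another isomerase, was the 1 ER arm gene that passed and was higher, with 262 and 293 CPM in the HEK293 controls, against 158 to 193 CPM in the HCT116 controls (0.44 ± 0.10, adjusted p = 0.00919). XBP1 had -0.01 ± 0.19 and did not pass. DNAJB11 and CREB3L2 lost their call without any one of the 4 HCT116 clones, MANF without clone 1, 3 or 4, and ATF6 without clone 2. Against the 2 HCT116 controls of day D, 4 ATF4 arm and 3 ER arm genes passed in place of 9 and 10, below the 33.9% of all genes that were called there.

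**Figure D5:**
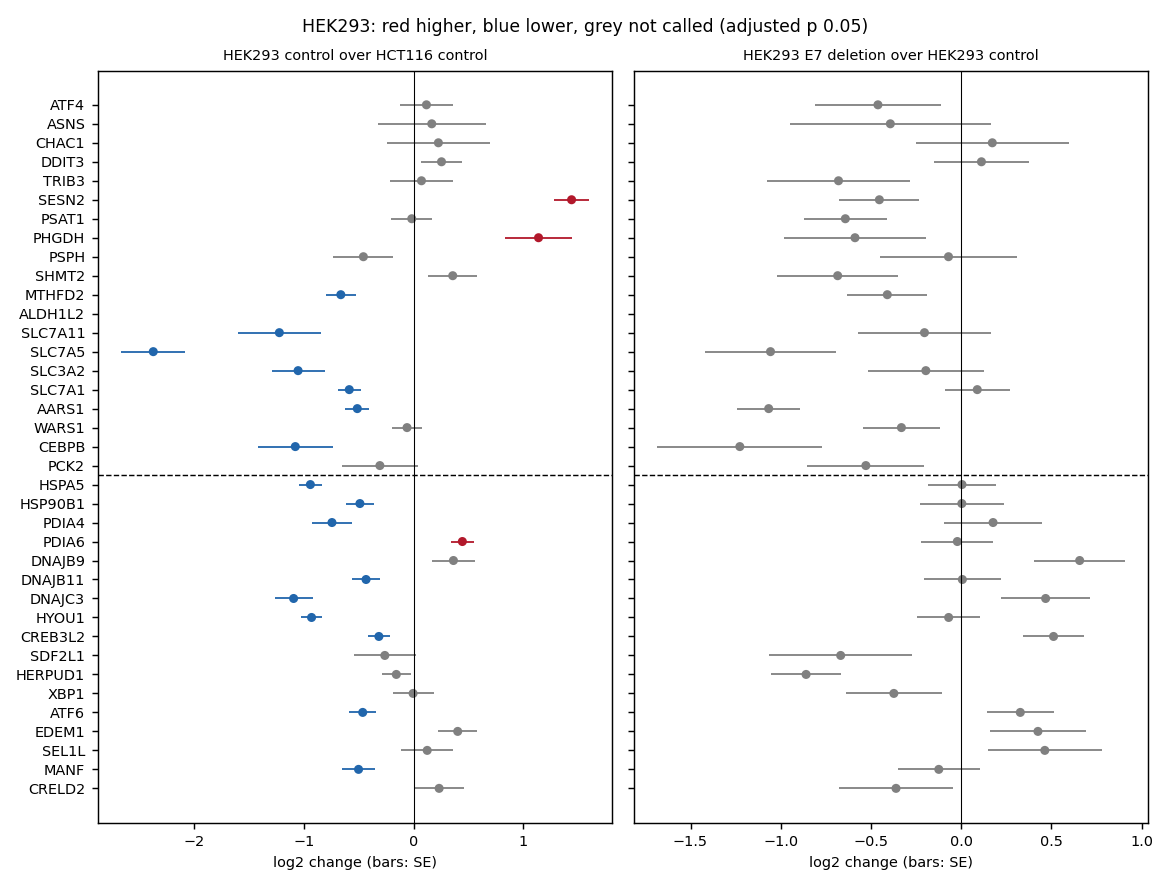
Log2 change (point) with its standard error (bar) of each member, HEK293 control over HCT116 control on the left and HEK293 E7 deletion over HEK293 control on the right, ATF4 arm above the dashed line; ALDH1L2 was not listed in HEK293. Red and blue points passed the test. On the left SLC7A5 is lowest (-2.37) and SESN2 highest (1.44); on the right no point passed, and the bars are wider in the ATF4 arm.

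Around the arms, 0 of 18 other tRNA synthetases were higher and 5 lower in the HEK293 controls, where 31.1% of all genes were higher and 26% lower, led by CARS1 (-0.83), KARS1 (-0.60) and IARS1 (-0.47). Of 34 other ER folding and degradation genes 7 were higher and 13 lower. DERL3, a channel of misfolded protein removal, had 19.2 and 24.7 CPM in the HEK293 controls and at most 0.249 CPM in any HCT116 library. ERO1B, an ER oxidase, was higher by a log2 change of 2.00 and PDIA5 lower by -1.68. Of 23 other ATF4 targets 8 were higher and 7 lower, with VLDLR, a lipoprotein receptor, at 6.32 and SLC38A2, a neutral amino acid transporter, at -1.97. CBS was the largest of them, at 97.3 and 160.5 CPM in the HEK293 controls and at most 0.218 CPM in any HCT116 library. Whether shared reads affect its level was not tested.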

How the data were processed

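RNA from 26 of the 32 samples was used; the 6 chromatin samples and the 4C profiles were not analysed here. The authors deposited whole-number read counts per gene, 1 library per file, with no normalization. The submitters' processing notes name build hg19 and the tools HTSeq 0.6.1, TopHat2, BWA 0.6.2, bedtools, Partek 3, bcl2fastq and CASAVA, without their order or a strand setting, so reads of overlapping or antisense genes cannot be told apart. HCT116 files held 5 summary lines, which stayed out of library sizes and tests. How the genes of the HEK293 files were chosen is not stated in the labels. Symbols came from NCBI tables (51996 of 57820 and 11567 of 11887 IDs matched).

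Counts were tested with edgeR 4.0.16 in R 4.3.3 (2-sided quasi-likelihood F test after filterByExpr, minimum count 10, and TMM scaling; Benjamini-Hochberg over all genes tested, threshold 0.05), and the code was tested on simulated data. In HCT116 the 3 libraries of a clone were summed for the E7 comparison. The 18qNE clones were compared with the controls of days A and B, and 18qE clones with those of day D. Comparisons of E7, 18qNE, days, clones and lines share the HCT116 control libraries. Where libraries of 1 clone are compared, p-values measure the spread between extractions. DESeq2 1.42.0, RLE size factors, no filter, single clones, libraries and days left out and a replicate block were the alternatives. Leaving out the E7 library of day A, and the day D controls in turn, was added after seeing the data. The controls kept their day A libraries when that E7 library alone was left out.

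Members and lists were chosen with earlier results of these data known. Per comparison and arm, up to 4 called members with the largest change are given with values, with ATF4, DDIT3, HSPA5 and XBP1 in the comparisons of deletions and lines, members that lost their call, and up to 3 genes of each neighbouring list. Members given beyond that rule were chosen after their values were seen. Standard errors and p-values cover the spread between clones or libraries, and gene length was not used.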

Additional observations from a re-analysis of the deposited data

Results flagged for a closer look

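CRELD2, an ER stress-induced protein of the ER arm, stood apart in control clone 3 of HCT116. Summed over days A to C it had 54.81 CPM there, against 47.19 CPM in the next highest of the 4 control clones, and this gap made up a share of 0.876 of the range of the group. Chance alone flags about 1 in 20 groups of this size, and 37 genes were looked at. Clone 3 against the other 3 gave a log2 difference of 0.27 for CRELD2 that did not pass (adjusted p = 0.0934, edgeR).

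AARS1, the alanyl-tRNA synthetase of the ATF4 arm, differed between the lines in its change with E7 deletion. The log2 change in HEK293 lay below that in HCT116 by -1.0061 (adjusted p = 0.0214, edgeR), with 99.0 and 92.1 CPM in the HEK293 E7 libraries, against 197 and 185 CPM in their controls. HCT116 has a single E7 clone and the HEK293 E7 libraries share a clone label, so clone and deletion cannot be told apart.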

How the results depend on the processing

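Counts of called members are given as ATF4 arm and ER arm. The share of all genes called also moved between settings, so a changed count is not by itself a result about the arms. With libraries as replicates, 34.8% of the genes tested were called for E7 deletion in HCT116. For E7 deletion in HEK293 the share was 3.92% in DESeq2 and 5.68% with the replicate block. E7 deletion in HCT116 gave 1 and 3; leaving out control clones in turn gave 0 to 2 and 1 to 5, no low-count filter 2 and 3, day A left out 0 and 0, day C left out 0 and 3, the 18qNE clones as reference 0 and 0, libraries as replicates 2 and 5, and without the E7 library of day A 1 and 0. In that last setting the ATF4 arm gene was ALDH1L2 (-1.61). The controls kept day A there, and ALDH1L2 averaged 3.71 CPM in the controls on day A, 1.54 CPM on day B and 1.98 CPM on day C. That change therefore holds a day difference as well. The 18qNE comparison stayed at 0 and 0 in every setting run. The 18qE comparison (0 and 0) gave 5 and 0 without 18qE clone 2, and a range of 0 to 5 and 0 to 0 over clones left out. E7 deletion in HEK293 (0 and 0) gave 1 and 1 in DESeq2, 3 and 1 with the library number as a replicate block, and 0 to 15 and 0 to 10 over libraries left out. The difference between lines (1 and 0) ranged over 0 to 11 and 0 to 10 over clones and libraries left out.

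The lines (9 and 10) gave 4 and 3 against the HCT116 controls of day D, where 33.9% of the genes tested were called. Day B against day A (9 and 9) ranged over 4 to 10 and 1 to 10 without single clones, where 18.3% to 42.9% of the genes tested were called. Day C against day A (7 and 3) ranged over 3 to 7 and 0 to 8 without single clones, where 12.9% to 33.6% of the genes tested were called. It gave 11 and 5 with no low-count filter (16.1% of the genes tested) and 4 and 4 with no replicate block (23.8%). Day C against day B (0 and 0) gave 1 and 1 with no filter, where 0.843% of the genes tested were called. Differences among control clones (2 and 0) gave 8 and 1 with no filter, 2 and 2 without day A, 5 and 0 without day B and 1 and 0 without day C. Of the genes tested, 6.35%, 11.7%, 5.79% and 2.08% were called in those settings, in that order. With no filter, clone 2 gave 3 and 0, clone 3 gave 5 and 1, clone 4 gave 6 and 0 and day D against days A to C 8 and 0. The shares of the genes tested were 1.24%, 4.71%, 3.58% and 1.55%, in that order. Clone 3 gave 1 and 4 without day A (12.4% of the genes tested) and 5 and 0 without day B (4.87%). Clone 4 gave 1 and 0 without day A (8.56%) and 5 and 0 without day C (1.43%). Why the counts moved between settings was not tested.

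For E7 in HEK293, without control library 1 or 2, ASNS was at -1.02 or 0.74 and PSPH at -0.52 or 0.58. Without HEK293 control library 1 or 2, PSPH in the difference between lines was at -0.39 or 0.71, and in the line comparison ATF4 was at 0.53 or -0.45, TRIB3 at 0.54 or -0.62 and SEL1L at -0.38 or 0.49. XBP1 was at 0.29 there without control library 1, and CREB3L2 at 0.055 against the HCT116 controls of day D. Over all members and settings, 3697 values kept direction and side of the threshold, 159 newly passed it and 118 no longer passed. A further 355 changed sign without a call in either fit, and 8 changed sign with a call. Changes in size alone were not counted.

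Same-numbered clones did not deviate together in the 18qNE comparison (correlations from -0.25 to 0.11). The 2 pairs of 18qE and control clones (0.09) and the 2 pairs in HEK293 (0.345) were too few to tell. No pairing is assumed, and the replicate block left 18qNE and 18qE at 0. Depth limits DDIT3, CHAC1 and ALDH1L2 most, at under 10 CPM in most libraries.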

Other observations

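On day B against day A in the control clones, 19.1% of all genes rose and 19.4% fell, and the neighbouring gene lists are read against those shares. Of 20 genes of the stress sensors, eIF2 kinases and eIF2 and eIF2B subunits, 9 rose and 2 fell, led by EIF2B4 (0.55), EIF2B3 (0.50) and EIF2S1 (0.47) on the log2 scale. Of 18 other tRNA synthetases 7 rose, led by FARSA (0.47), FARSB (0.47) and KARS1 (0.41), and 1 fell. Of 12 cytosolic heat shock genes 7 rose and 1 fell, led by HSPA1A (0.60) and HSPA1B (0.60), which share reads, and HSPA8 (0.57). Of 23 other ATF4 targets 8 rose and 6 fell: ATF5 rose by 0.97, while KLHL24 (-1.93) and GDF15 (-1.59) fell. 

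As a description over the 22 HCT116 libraries and 11017 genes with at least 5 CPM on average, the genes whose CPM ranked most like ATF4 were PFDN2 (Spearman rho 0.87), EIF2S2 (0.85) and C9orf78 (0.81). Those most like HSPA5 were EPB41L4A-AS1 (0.75), XBP1 (0.75) and SNHG11 (0.70). The libraries share clones, days and depth; XBP1 is a member of the ER arm, and the other 5 genes are in neither arm.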
